A study of Mus musculus with 4 samples.

Results

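Transcripts of 8 genes of the insulin-like growth factor (IGF) axis were followed in exosome RNA of rat mesenchymal stem cells (MSCs). They were the IGF-binding protein genes Igfbp2, Igfbp3, Igfbp4, Igfbp5, Igfbp6 and Igfbp7, the growth factor gene Igf1 and its receptor gene Igf1r. The genes were chosen by name, with earlier results of these data known, and all 8 were among the 42977 genes of the deposited gene table. Exosomes are small vesicles that cells release into the medium. The MSCs came from the bone marrow of male SD rats aged 6 to 8 weeks, grew in medium with fetal bovine serum and were used at passages 3 to 4. The donor cells of the 2 control libraries (MSC-Exo) received DMSO, the solvent of the drug. Those of the 2 treated libraries (MSCATV-Exo) received atorvastatin (ATV), a statin that inhibits cholesterol synthesis, at 1 µmol/L. The labels give the length of the treatment as 24 h in one place and 48 h in another, and the medium was collected after it. The samples are registered as mouse, but the donor animals, the build used for alignment and the gene identifiers are of rat. No separate animals or cultures are named behind the 2 libraries of a group, and medium was gathered from several dishes. Every SD, SE and p below therefore measures the spread between these libraries alone, which may be technical.

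IGF1 and IGF2 are secreted peptides that act through the receptor tyrosine kinase IGF1R to promote growth and survival of cells. In blood and tissue fluid most IGF is held by IGF-binding proteins (IGFBPs), which lengthen its life and set how much of it reaches the receptor. Stromal cells of the bone marrow secrete several IGFBPs, and some of these also bind matrix or cell surfaces and act without IGF.

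The gene counts summed to between 5350295 and 5947020 per library. All 14 genes of the MSC marker list were in the gene table. Of these, 8 lay above 3 times the median level of olfactory receptor genes, which MSCs are not thought to use. Levels set against this limit are means over the 4 libraries. Among the 8, Twist1 averaged 3.62 RPKM over the controls and 13.2 RPKM over the treated libraries. Among surface marker genes, Thy1 (20.3 RPKM) and Itgb1 (31.2) lay above this limit, and Eng (7.52), Pdgfrb (6.02), Nt5e (4.09) and Cd44 (3.53) below. The list summed to 333 and 369 RPKM in the controls and 383 and 378 in the treated libraries. RPKM are read counts divided by gene length and library total. Vim and Col1a1, which encode vimentin and a collagen I chain, had mean levels of 207 and 34.5 RPKM, while Col1a2 was listed at 0 in all 4 libraries. Vim alone gave 187 and 202 RPKM of the summed MSC list in the controls and 225 and 214 in the treated libraries. The leukocyte, erythroid, endothelial, hepatocyte, adipocyte and osteoblast lists held 4 genes in all above the same limit. Among the 4, C1qa of the leukocyte list averaged 12.5 RPKM over the controls and 5.56 RPKM over the treated libraries. The median gene of these lists lay at 1.52 to 2.32 times the olfactory receptor median, and that of the MSC list at 3.14 times. The summed level of the leukocyte list ran from 49.1 to 63.2 RPKM in MSC-Exo and from 36.7 to 41.1 RPKM in MSCATV-Exo. Its part in the results below was not tested.

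Averaged over the 4 libraries, Igfbp4 was the most abundant of the 8 transcripts and Igf1 the least. On the scale of mean RPKM over the 4 libraries the order was Igfbp4 (20.8), Igfbp6 (12.9), Igfbp2 (9.62), Igfbp7 (6.46), Igf1r (5.32), Igfbp3 (5.08), Igfbp5 (4.56) and Igf1 (2.45). Igfbp4 owed its place to the treated libraries, since over the controls its mean of 12.7 RPKM lay below the 14.0 RPKM of Igfbp6. In MSC-Exo replicate 2 Igfbp6 was the highest of the 8, and in MSCATV-Exo replicate 2 Igfbp5 was the lowest. The ranges of every pair of neighbours in this order overlapped, so no step of the order was larger than the spread between libraries. Among 22633 protein-coding genes Igfbp4 ranked 333, Igfbp6 683 and Igfbp2 1565 by mean level. The other 5 genes lay between rank 6504 and rank 18014, among the bulk of the table.

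The lower part of this order was close to the level at which genes with no known role in MSCs were recorded. The median of 1188 olfactory receptor genes was 2.47 and 2.36 RPKM in the controls and 1.71 and 2.28 RPKM in the treated libraries. Mean levels were 7.63 times the olfactory receptor median for Igfbp4, 4.75 times for Igfbp6 and 3.54 times for Igfbp2. They were 2.37 times for Igfbp7, 1.96 times for Igf1r, 1.87 times for Igfbp3 and 1.67 times for Igfbp5, and Igf1, at 0.898 times, lay below that median. Within single libraries Igfbp4 lay at 4.59 and 5.94 times the median in the controls and 12.2 and 16.2 times in the treated libraries. Igfbp6 lay at 2.88 and 8.85 times in the controls and 5.89 and 6.05 times in the treated libraries. Of the olfactory receptor genes 0% had a higher mean level than Igfbp4 and 0.253% a higher one than Igfbp6. For Igf1r this share was 15.1% and for Igf1 56.3%. How far reads at that level reflect expressed transcripts was not tested.

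**Figure D1:**
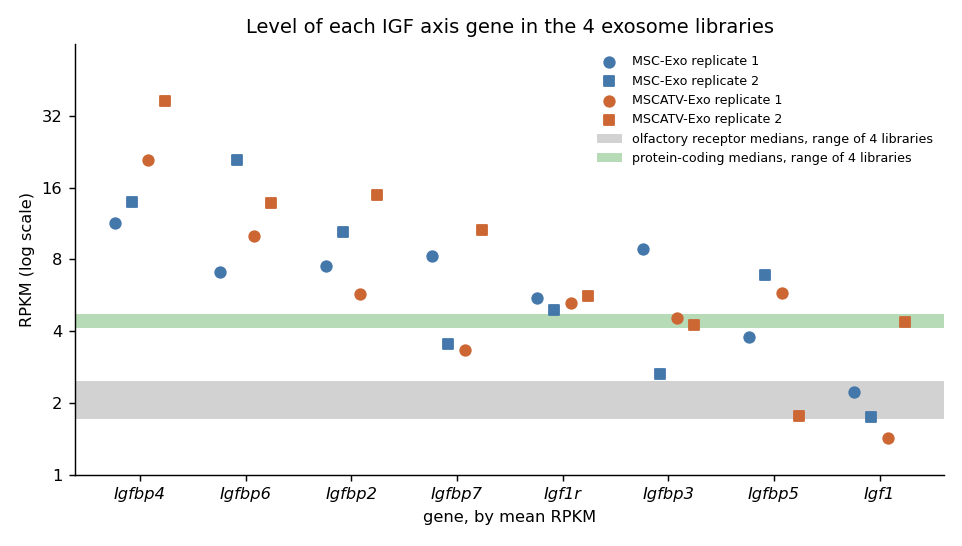
Level in RPKM (log scale) of the 8 genes in each of the 4 libraries, with MSC-Exo in blue, MSCATV-Exo in orange, circles for replicate 1 and squares for replicate 2. The grey and green bands span the medians of olfactory receptor genes and of protein-coding genes over the 4 libraries. Igfbp4 shows its 2 MSCATV-Exo libraries above its 2 MSC-Exo libraries, and Igf1 lies in or near the grey band in 3 libraries.

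Igfbp4 was higher in both atorvastatin libraries than in either control library. IGFBP4 is known as an inhibitor of IGF action that is cleaved by the protease PAPP-A, which frees the bound IGF. Igfbp4 (chromosome 10, 86950555 to 86962563, plus strand, build rn6) had 131 and 162 counts in the controls and 268 and 447 in the treated libraries. The exact 95% Poisson intervals of the 4 counts were 110 to 155, 138 to 189, 237 to 302 and 407 to 490. The highest control interval and the lowest treated interval did not meet. The reads carry no molecular identifiers and are not independent molecules, so intervals of this kind, here and below, hold counting error and nothing else.

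The deposited levels of Igfbp4 were 11.3 and 14.0 RPKM in the controls and 20.8 and 36.9 RPKM in the treated libraries. In normalised CPM, which are counts rescaled by library size and TMM factor, it averaged 26.6 ± 4.23 (SD, n = 2) over the controls and 64.4 ± 21.7 over the treated libraries, which is 2.42-fold higher. The 2 treated libraries differed from each other 1.62-fold, and the 2 control libraries 1.25-fold. In such bulk RNA, more vesicles that carry a transcript and more copies per vesicle cannot be told apart.

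The edgeR quasi-likelihood test gave Igfbp4 a log2 fold change of 1.28 ± 0.34 (SE). Its two-sided p was 0.00329, which ranked 47 of the 33480 genes tested, and its adjusted p over all of them was 1.00. With edgeR 0 of the 8 genes were called, against 0% of all genes, while 1236 genes (3.69%) had an unadjusted p under 0.05, Igfbp4 being the 1 gene among the 8. DESeq2 on the same counts called Igfbp4 with an adjusted p of 0.0354 (log2 fold change 1.28 ± 0.32, SE) and none of the other 7 genes, where 0.275% of all genes were called and 0.139% were called as higher in MSCATV-Exo. That DESeq2 call was lost when MSC-Exo replicate 1 (adjusted p = 0.854), MSC-Exo replicate 2 (0.194) or MSCATV-Exo replicate 2 (0.999) was left out, and it held when MSCATV-Exo replicate 1 was (0.0289).

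The direction was the same with each library left out. The edgeR log2 fold change of Igfbp4 was then lowest, at 0.89, when MSCATV-Exo replicate 2 was dropped and highest, at 1.58, when MSCATV-Exo replicate 1 was. In the authors' deposited table Igfbp4 has a log2 fold change of 1.19 and a q-value listed as 0, and Igf1 (0.56, q = 0.0330) is the other of the 8 genes under 0.05. The authors' deposited table puts 34.3% of its genes under that q-value, and the test behind it is not stated in the sources used here. With 2 libraries against 2, the smallest two-sided p an exact permutation test can reach is 0.333, so none is given for single values.

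The size of the Igfbp4 difference was uncommon among genes of its own read depth. Of 6040 tested genes with a mean count within 2-fold of that of Igfbp4, 9 had a larger log2 fold change. In either direction 0.348% had a larger one, and the median of the 6040 genes was 0.03. Most abundant transcripts also leaned towards the treated group. Of the 332 tested protein-coding genes with a mean level at or above that of Igfbp4, 249 (75.0%) had a positive log2 fold change, with a median of 0.24, and 2 exceeded the value of Igfbp4. The annotated neighbours within 50000 bases of Igfbp4 did not share its difference. Tns4, which encodes the focal adhesion protein tensin 4, had 71 and 97 reads as against 112 and 52 (log2 fold change -0.04). Top2a, which encodes a DNA topoisomerase of dividing cells, had 156 and 125 against 117 and 167 (0.01). No other annotated gene overlaps the span of Igfbp4.

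Relative to the other 5 binding protein genes, Igfbp4 took a larger part of the reads in the treated libraries. This measure is taken within a library and does not depend on how libraries are scaled to each other. Igfbp4 made up 24.1% and 24.0% of the summed RPKM of the 6 genes in the controls and 41.4% and 44.9% in the treated libraries. As a share of their counts it was 31.8% (95% exact Clopper-Pearson interval 27.3% to 36.5%) and 36.3% (31.9% to 41.0%) in MSC-Exo, and 52.9% (48.4% to 57.3%) and 58.7% (55.1% to 62.3%) in MSCATV-Exo. The intervals of the 2 control libraries overlapped each other and lay below those of both treated libraries.

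The summed level of the other 5 genes showed no such separation. It was 35.6 and 44.3 RPKM in the controls and 29.5 and 45.3 RPKM in the treated libraries. In normalised counts these 5 genes together averaged 51.2 ± 0.886 CPM (SD, n = 2) over the controls and 49.9 ± 8.66 over the treated libraries, a ratio of 0.973. Against the receptor transcript, the RPKM of Igfbp4 was 2.05 and 2.86 times that of Igf1r in MSC-Exo and 3.96 and 6.56 times in MSCATV-Exo. The groups did not overlap, but this ratio and the shares reuse the Igfbp4 counts given above and are no separate evidence.

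**Figure D2:**
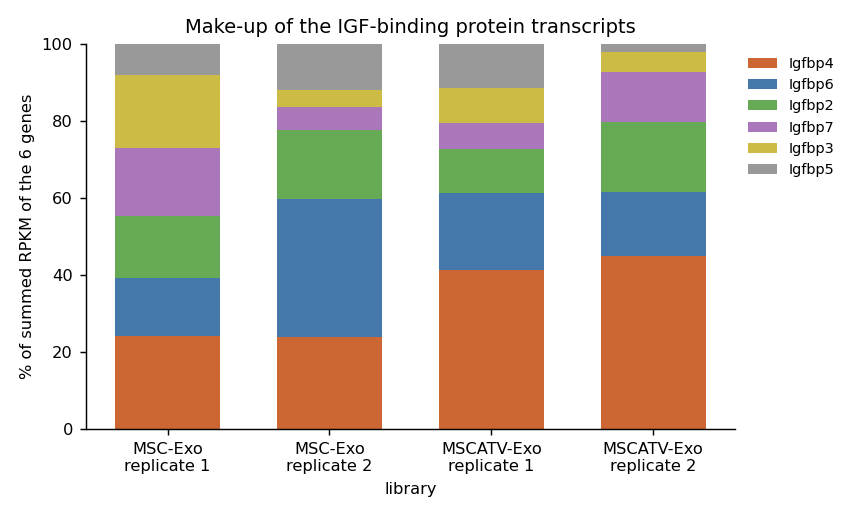
Share (%) of the summed RPKM of the 6 binding protein genes taken by each gene, 1 bar per library. Igfbp4, at the foot of each bar, takes 24.1% and 24.0% in the controls and 41.4% and 44.9% in the treated libraries, while the other 5 shares differ as much between replicates as between groups.

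The binding protein genes Igfbp2 and Igfbp5, which lie 9425 bases apart with their 3′ ends facing each other on chromosome 9, did not differ between the groups beyond the spread of the libraries. IGFBP2 is a carrier of IGF in blood and binds integrins, and IGFBP5 binds matrix and has been studied in bone. Igfbp2 (80118029 to 80144804, plus strand) had levels of 7.51 and 10.4 RPKM in the controls and 5.71 and 14.9 RPKM in the treated libraries. Both the highest and the lowest library were treated ones. Its log2 fold change was 0.28 ± 0.61 (SE), and -0.48 without MSCATV-Exo replicate 2.

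Igfbp5 (80154230 to 80166813, minus strand) was the least abundant binding protein transcript by mean level over the 4 libraries, with 33 and 60 counts in the controls and 56 and 16 in the treated libraries. These were levels of 3.79, 6.89, 5.79 and 1.76 RPKM in that order. The lowest library, MSCATV-Exo replicate 2, held Igfbp5 below its own olfactory receptor median, at 0.772 times. The log2 fold change was -0.37 ± 0.84 (SE), and it was 0.28 without that library. The highest library of Igfbp2 was thus the lowest of Igfbp5.

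Igfbp3 and Igfbp7 lie on chromosome 14. IGFBP3 is the main IGF carrier of blood, where it joins IGF and the acid-labile subunit in a ternary complex. Igfbp3 (87457647 to 87465374, minus strand) had 114 and 34 counts in the controls and 65 and 57 in the treated libraries, or 8.87 and 2.64 against 4.55 and 4.24 RPKM. Both treated values lay between the 2 control values. The log2 fold change of -0.28 ± 0.65 (SE) became 0.82 without MSC-Exo replicate 1 and -0.89 without MSC-Exo replicate 2. Its neighbour Igfbp1, 3863 bases away on the plus strand and known as a liver-made IGFBP under insulin control, had 72 and 31 reads as against 52 and 114 (log2 fold change 0.68 ± 0.65, SE).

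IGFBP7 binds IGF weakly and is a protein of vessel walls and stroma. Igfbp7 (33010300 to 33070193, plus strand) had 49 and 21 counts in the controls and 22 and 66 in the treated libraries, or 8.29 and 3.55 against 3.35 and 10.7 RPKM. One library of each group was low and the other high, and the log2 fold change was 0.32 ± 0.86 (SE). Its direction turned to -0.16 without MSC-Exo replicate 2 and to -0.64 without MSCATV-Exo replicate 2. The span of Igfbp7 overlaps 4 annotated genes on the minus strand. Among them LOC103692786 held 339 and 319 reads in the controls and 395 and 453 in the treated libraries. Polr2b held 70 and 43 against 79 and 105. The library kit does not mark strand, so reads of overlapping exons could not be told apart.

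IGFBP6 differs from the other IGFBPs in its preference for IGF2. Igfbp6 (chromosome 7, 143749385 to 143754018, plus strand) was second in mean level over the 4 libraries, with 33 and 97 counts in the controls and 52 and 67 in the treated libraries, or 7.10 and 20.8 against 10.1 and 13.8 RPKM. Both treated libraries lay between the 2 control libraries. The log2 fold change was -0.14 ± 0.66 (SE), 0.85 without MSC-Exo replicate 2 and -0.73 without MSC-Exo replicate 1. The minus-strand lncRNA gene LOC102551965 overlaps its span and held 0 and 9 reads as against 0 and 2.

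Igf1 stood apart in a single library. Igf1 (chromosome 7, 28412123 to 28491815, plus strand), which encodes the growth factor, had 88 and 69 counts in the controls and 63 and 182 in the treated libraries. Its levels were 2.22, 1.74, 1.43 and 4.39 RPKM, which is 0.901, 0.739, 0.838 and 1.93 times the olfactory receptor median of the same library. Only MSCATV-Exo replicate 2 lay above that median, and MSCATV-Exo replicate 1 was the lowest of the 4. The log2 fold change of 0.63 ± 0.54 (SE) became -0.30 without MSCATV-Exo replicate 2. The authors' deposited table places Igf1 under a q-value of 0.05, as given above, whereas edgeR and DESeq2 gave adjusted p of 1.00 and 0.894.

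Igf1r was the steadiest of the 8 transcripts. Igf1r (chromosome 1, 128924921 to 129213816, plus strand) had 338 and 300 counts in the controls and 359 and 361 in the treated libraries. In normalised counts it averaged 57.8 ± 4.31 CPM (SD, n = 2) over the controls and 65.04 ± 0.945 over the treated libraries. Both treated libraries lay above both control libraries on this scale, by a log2 fold change of 0.17 ± 0.27 (SE). On the deposited scale of 5.51 and 4.89 against 5.27 and 5.63 RPKM, which uses library totals alone, the groups overlapped.

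Of the 8 genes, Igfbp4 and Igf1r thus had groups that did not overlap in CPM with MSCATV-Exo higher, and 0 had them with MSCATV-Exo lower. Over all tested genes 16.1% were separated in the first direction and 17.4% in the second, so a count of 2 of 8 stands near the background. In the fit 5 of the 8 had a positive and 3 a negative log2 fold change, with a median of 0.22, while 49.4% of all tested genes were positive and their median was -0.01. MSCATV-Exo replicate 2 held the highest RPKM of 5 of the 8 genes, and of 25.5% of all tested genes. Without it 3 of the 8 were positive, with a median of -0.23.

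**Figure D3:**
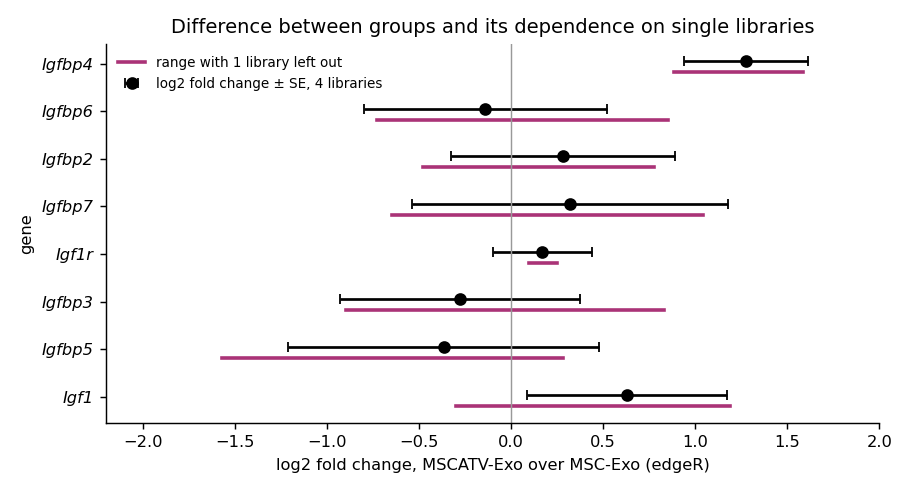
Log2 fold change of MSCATV-Exo over MSC-Exo from edgeR for each gene, as black points with the SE. Purple lines give the range of the value when 1 of the 4 libraries is left out. They span edgeR and DESeq2 fits, although the axis label names edgeR alone. The lines of Igfbp4 (0.89 to 1.58) and Igf1r (0.10 to 0.25) stay on the positive side, and those of the other 6 genes cross 0.

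Each of the 6 binding protein transcripts differed between the 2 libraries of at least 1 group by more than counting error. The ratio of the higher to the lower library was 3.31 for Igfbp3 in MSC-Exo (95% interval from the exact binomial on the 2 counts 2.24 to 5.00) and 1.17 in MSCATV-Exo (0.808 to 1.70). It was 2.98 (1.99 to 4.57) and 1.26 (0.861 to 1.84) for Igfbp6, and 1.84 (1.19 to 2.91) and 3.59 (2.03 to 6.71) for Igfbp5. Igfbp3 and Igfbp6 thus varied most within the control group and Igfbp5 most within the treated group, and in MSC-Exo the high library was replicate 1 for Igfbp3 and replicate 2 for Igfbp6.

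Genes of like read depth gave the scale for these ratios. For genes with a mean count within 2-fold of that of Igfbp3, the median ratio between the 2 MSC-Exo libraries was 1.48, and 7.12% of those genes had a larger ratio than Igfbp3. For Igf1 in MSCATV-Exo the ratio was 2.81 (2.10 to 3.81), and 9.18% of genes of like depth exceeded it. Igf1r, with 1.11 (0.948 to 1.30) and 1.02 (0.880 to 1.18), differed within both groups by no more than counting error.

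**Figure D4:**
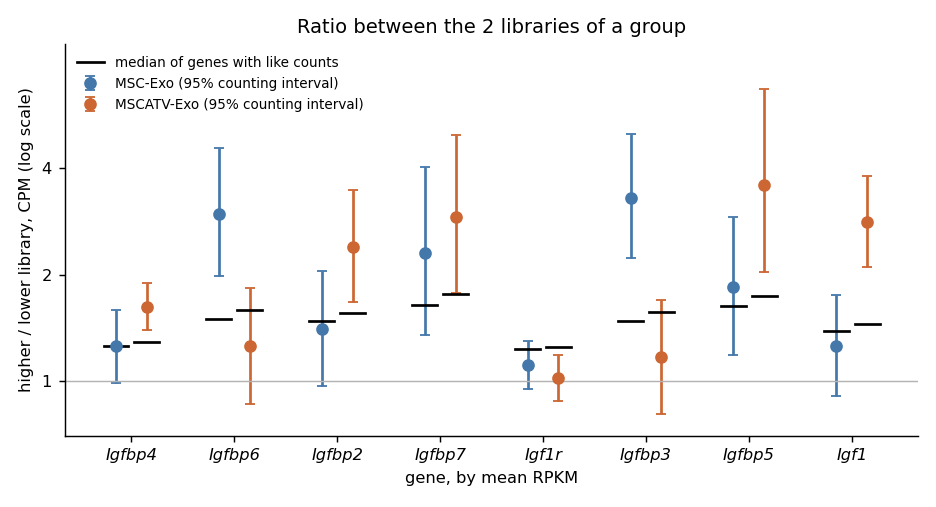
Ratio of the higher to the lower library (CPM, log scale) within MSC-Exo (blue) and MSCATV-Exo (orange) for each gene, with the 95% interval that counting error gives. Black ticks mark the median ratio of genes with a mean count within 2-fold. Igfbp3 and Igfbp6 in MSC-Exo and Igf1 in MSCATV-Exo lie well above their ticks, and both Igf1r intervals include 1.

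Other genes of the IGF pathway were split in direction. Of 29 listed genes, all tested, edgeR called 0 (0 also at an unadjusted p under 0.05), and DESeq2 called 0. Their log2 fold changes were positive for 14 and negative for 15, with a median of -0.000500 against -0.01 over all genes. The groups did not overlap for 9 of them, 3 with MSCATV-Exo higher and 6 lower, against 33.5% of all genes in either direction. With total-count scaling 12 of the 29 were positive.

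The 4 pathway genes with the smallest p were Igfals, Igf2, Socs2 and Grb2. Igfals, which encodes the acid-labile subunit of the ternary complex, had 153 and 187 counts in the controls and 89 and 110 in the treated libraries (log2 fold change -0.78 ± 0.38, SE; edgeR unadjusted p = 0.0662). Igf2, the second ligand, had 161 and 164 against 257 and 227 (0.57 ± 0.31). Its groups were separated by more than the spread within either, which the choice by smallest p favours. Socs2, an inhibitor of growth hormone signalling, had 72 and 66 against 11 and 42 (-1.39 ± 0.79), and the adaptor gene Grb2 had 108 and 171 against 58 and 104 (-0.80 ± 0.47).

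The most abundant pathway genes were Ctsd, Grb14, Akt1 and Shc1, with mean levels of 14.4, 13.6, 12.2 and 11.6 RPKM over the 4 libraries. Over the controls alone Igfals was highest, at 14.9 RPKM, and Akt1 (14.0) and Grb14 (13.2) also lay above the 12.7 RPKM of Igfbp4. The 4 genes encode the lysosomal protease cathepsin D, a receptor-binding adaptor, a kinase downstream of IGF1R and another adaptor. Their log2 fold changes were 0.47 ± 0.39, 0.20 ± 0.37, -0.30 ± 0.42 and -0.03 ± 0.34 (SE), and the groups overlapped for all 4. Pappa, which encodes the protease of IGFBP4, and Stc2, which encodes an inhibitor of that protease, were singled out after their values were seen. Pappa had 324 and 272 reads as against 171 and 247 (log2 fold change -0.52 ± 0.31, SE) and Stc2 28 and 59 against 14 and 17 (-1.49 ± 0.96). Both stood lower in the treated libraries without overlap in CPM, as did 17.4% of all tested genes. Neither was called by edgeR or DESeq2. Their relatives Pappa2 (log2 fold change 0.13 ± 0.34, SE) and Stc1 (0.35 ± 0.96) had positive values, and the groups overlapped for both.

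Genes that encode other proteins with an IGFBP-type domain were spread more widely. Of 11 listed genes edgeR called 0, with 2 at an unadjusted p under 0.05 (3.69% of all genes), and DESeq2 called 0. In the edgeR fit 6 were positive and 5 negative (median log2 fold change 0.23). The groups did not overlap for 3 on the higher and 2 on the lower side, against 16.1% and 17.4% of all genes. Htra1, a secreted serine protease, had 109 and 66 counts in the controls and 18 and 21 in the treated libraries, a 4.50-fold lower mean (log2 fold change -2.16 ± 0.68, SE; unadjusted p = 0.00889; DESeq2 adjusted p = 0.0855). Esm1, which encodes the proteoglycan endocan, had 63 and 75 against 191 and 134 (1.23 ± 0.43; unadjusted p = 0.0154). The matricellular protein genes Nov and Wisp2 had 20 and 27 against 70 and 68 counts (1.54 ± 0.71) and 35 and 60 against 97 and 117 (1.16 ± 0.54). All 4, named for the smallest p of the list, had treated and control libraries apart, which that choice favours.

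Ctgf and Igfbpl1, abundant members of the same list, had both their highest and their lowest RPKM within the treated group. Ctgf, a matricellular growth factor gene, had 149 and 82 counts in the controls and 62 and 215 in the treated libraries. Igfbpl1 had 41 and 78 against 42 and 99. In normalised CPM its lowest library was MSC-Exo replicate 1, at 7.38 against 7.69 for MSCATV-Exo replicate 1. Of the treated libraries, replicate 2 was the high one and replicate 1 the low one for both genes. Their log2 fold changes were 0.25 ± 0.56 and 0.23 ± 0.64 (SE).

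The IGF2 mRNA-binding protein genes, whose products bind RNA and not IGF, are named alike but form a separate family. Igf2bp1 had 246 and 231 counts in the controls and 270 and 305 in the treated libraries, Igf2bp2 had 107 and 100 against 108 and 139, and Igf2bp3 had 125 and 122 against 171 and 86. All 3 log2 fold changes were positive, at 0.26 ± 0.29, 0.25 ± 0.41 and 0.06 ± 0.44 (SE), and none was called. Over all tested genes 49.4% were positive. The groups did not overlap in CPM for 2 of the 3, Igf2bp1 and Igf2bp2, against 16.1% of all genes on the higher side. In RPKM the groups overlapped for both. With total-count scaling 2 of the 3 were positive.

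**Figure D5:**
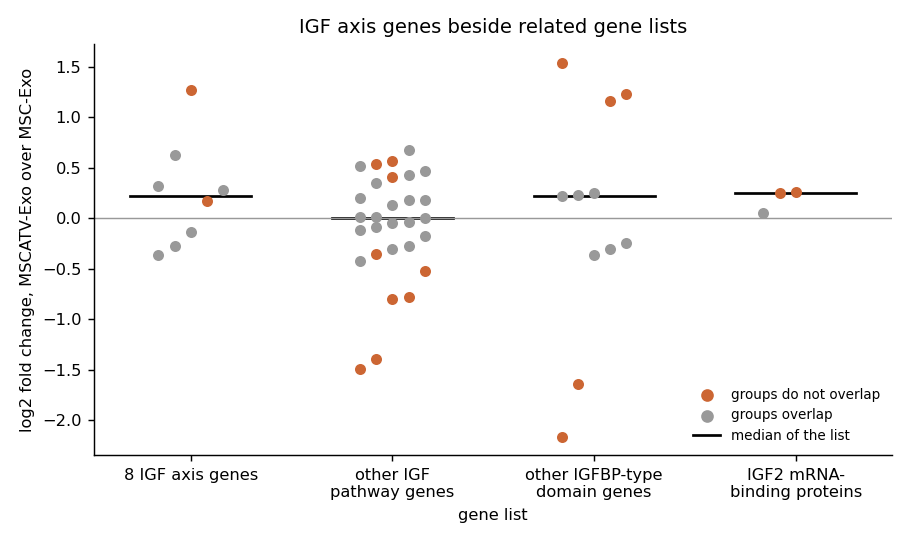
Log2 fold change of MSCATV-Exo over MSC-Exo for the 8 IGF axis genes and 3 related lists, 1 point per gene, orange where the treated and control libraries do not overlap in CPM and grey where they do. Black lines are list medians (0.22, -0.000500, 0.23 and 0.25), and 0 of the genes shown passed the edgeR test.

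The transcripts whose levels over the 4 libraries lay closest to those of Igfbp4 were Atp6v1f, Mir7a-2 and Ccng1. The measure was the root mean square difference of log2(RPKM + 1) over 4 libraries, which was 0.16 for Atp6v1f, 0.16 for Mir7a-2 and 0.19 for Ccng1. Atp6v1f, a subunit of the vacuolar proton pump, had levels of 12.5 and 13.4 RPKM in the controls and 17.8 and 42.0 RPKM in the treated libraries. Mir7a-2, a microRNA gene, had 13.8 and 13.8 against 19.5 and 41.4 RPKM, and the read counts behind these levels were not examined. Ccng1, which encodes cyclin G1, had 12.6 and 13.5 against 21.9 and 28.7 RPKM. The measure takes the level as well as the pattern into account.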

How the data were processed

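RNA from 4 rat MSC exosome libraries, 2 per group, was made into libraries with the NEBNext Ultra kit and sequenced on an Illumina HiSeq instrument, per the labels. The submitters' processing notes name TopHat2 and the rat build rn6 (Rnor_6.0). The read counter and annotation release are not given in the sources used here. The authors deposited raw read counts and RPKM per gene, and a comparison table whose columns, per the file headers, are group mean RPKM, log2 ratio, p-value and q-value. Infinite ratios there show that no pseudocount was used. The separate tables of non-coding transcripts were not used, while non-coding genes in the gene table were kept. Every row of the gene table names a gene.

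The main test was the two-sided quasi-likelihood F test of edgeR 4.0.16 (R 4.3.3) on counts of genes kept by filterByExpr, with TMM factors and group as the only term. P-values were adjusted by the Benjamini-Hochberg method over 33480 genes, with a threshold of 0.05. A positive log2 fold change means a higher value in MSCATV-Exo. The SE beside an edgeR log2 fold change is that value, without its sign, divided by the square root of F. F draws in part on the variation of all tested genes, and the DESeq2 SE is the one DESeq2 reports. The script was tested on simulated data. It was repeated with RLE factors or total counts, unfiltered or with genes of a mean CPM of 1 or more, with a replicate block, and with each library dropped in turn. DESeq2 1.42.0 and limma 3.58.1 (on log2 of RPKM plus 1 or plus 0.1, mean RPKM of 1 or more) were run beside it. DESeq2 with each library dropped was added for Igfbp4 and the count of calls after the data were seen.

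The 8 genes and the lists were chosen with earlier results of these data known. Named genes were the 8, and of each other list the 4 with the smallest p and the 4 with the highest mean RPKM. For likeness the 3 nearest genes were named, without symbols that start with LOC, RGD, AABR or AC and digits. No rat sequence was at hand, and none is shown.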

Additional observations from a re-analysis of the deposited data

How the results depend on the processing

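The number of genes called, 0 with edgeR, was 95 with DESeq2, 8 without a filter on low counts and 4 with the replicate number as a block. With a library left out it ran from 1 to 168 with edgeR, and with DESeq2 it was 12 and 20 without a control library (replicate 1, replicate 2) and 36 and 13 without a treated one. The cause was not tested. Same-numbered libraries deviated from their group means with a correlation of -0.000516 over 33480 genes. This value gave no sign of pairing by number, but 1 correlation over genes of all read depths cannot exclude a shared culture. Under the block Igfbp6 turned to 0.039, while the other 7 genes kept their direction.

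Igfbp4 stayed positive under every alternative run. On all 4 libraries it was called by DESeq2 alone (log2 fold change 1.28), and with a library left out its value ran from 0.89 to 1.58 in edgeR. The edgeR ranges with a library left out were -0.48 to 0.774 for Igfbp2, -0.89 to 0.82 for Igfbp3, -1.56 to 0.28 for Igfbp5, -0.73 to 0.85 for Igfbp6, -0.64 to 1.03 for Igfbp7 and -0.30 to 1.19 for Igf1. Between 3 and 6 of the 8 genes were then positive. Of the 8 genes, 0 changed direction with RLE factors, total counts, other filters or limma. Total counts shifted the median over all genes from -0.01 to -0.11. Igfbp5 and Igfbp7 rested on the fewest counts, 16 to 60 and 21 to 66 per library, and had the largest SEs of the 8 genes.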
